A study of Mus musculus with 4 samples.

Results

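Apolipoproteins are the protein parts of the particles that carry cholesterol and triglyceride through blood. The transcripts described here are 10 apolipoprotein genes of the mouse liver, Apoa1, Apoa2, Apoa4, Apoa5, Apob, Apoc1, Apoc2, Apoc3, Apoe and Apom, chosen by symbol from the 19465 genes measured. All 10 were present in the data of each section. They were measured with the Visium assay, which counts transcripts as unique molecular identifiers (UMIs) on a grid of barcoded spots, in sections of formalin-fixed, paraffin-embedded (FFPE) mouse liver. A spot covers several cells, so values are those of small pieces of tissue and not of cell types.

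There were 4 sections, each from 1 mouse. A PDGFRBcreERT2/Hk2fl/fl mouse gave the Hk2-deleted fibrotic section (n = 1), after treatment with CCl4 (carbon tetrachloride, a toxin that injures hepatocytes around the central vein). Its Cre recombinase is driven by the Pdgfrb promoter, which is active in stellate cells and also in other mural cells, and deletes Hk2, the gene of hexokinase 2. The fibrotic sections (n = 2) came from HK2fl/fl mice given CCl4, and the healthy section (n = 1) came from an HK2fl/fl mouse given olive oil. Every mouse was labelled male and 5 months old, carried the floxed Hk2 alleles and received tamoxifen at 75 mg/kg on 5 days, with a wait of 2 weeks before the experiment. CCl4 was given at 1 µL/g body weight, 2 times a week, for 6 weeks by the design text and for 4 or 6 weeks by the protocol.

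The sections held 2577 to 4134 spots and 40585039 to 67479047 UMIs, with 13665 to 15588 UMIs in the median spot. Fibrotic replicate 1 went against its label: Eif2s3y, a Y-linked gene, had 0.578 CPM there (UMIs of the gene, scaled to 1000000 UMIs per section), against 62.1 to 69.9 CPM in the other sections. Results on the 10 genes are therefore also given without that section, while lists of other genes are given with all sections. Hk2, the deleted gene, was low everywhere, at 3.50 CPM in the Hk2-deleted section, 4.88 and 3.94 CPM in the fibrotic sections and 1.85 CPM in the healthy section. The deletion is aimed at cells that express Pdgfrb, whereas these levels are over all cells of a section, so they do not check it. Pairs of sections shared 2041 to 3320 spot barcodes, which name positions on the array and not cells. The sections were liver by their markers: albumin (Alb) made up 6.88 to 13.5% of all UMIs.

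Lipoproteins are built in the liver around apolipoprotein B, secreted, and then remodelled in plasma as other apolipoproteins move on and off them. Lipoprotein lipase removes their triglyceride under the control of several of these proteins, and the remnants return to the liver through receptors that bind apolipoprotein E. Apolipoprotein A-I forms high-density lipoprotein, the particle that carries cholesterol back from tissues. Hepatocytes differ along the liver lobule from the portal to the central vein, and CCl4 injures the pericentral end.

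The members lie in 2 groups of neighbouring genes and at 3 single places, in build GRCm38.p6 of the RefSeq gene table. Apoa1, Apoc3, Apoa4 and Apoa5 share 43.3 kb of chromosome 9 (46228630 to 46271921), while Apoc2, Apoc1 and Apoe share 29.7 kb of chromosome 7 (19671579 to 19701310). Apoa2 lies on chromosome 1, Apob on chromosome 12 and Apom on chromosome 17. The promoters of the chromosome 9 neighbours Apoa1, Apoa4 and Apoa5 are shown because these genes, close together on the chromosome, had unlike values across the sections and zones, as given below. Each sequence is from RefSeq, runs 5′ to 3′ on the plus strand from 250 bases before to 50 bases after the gene's start, and has matches to searched motifs in capitals:
Apoa1 (chr9:46228380-46228679): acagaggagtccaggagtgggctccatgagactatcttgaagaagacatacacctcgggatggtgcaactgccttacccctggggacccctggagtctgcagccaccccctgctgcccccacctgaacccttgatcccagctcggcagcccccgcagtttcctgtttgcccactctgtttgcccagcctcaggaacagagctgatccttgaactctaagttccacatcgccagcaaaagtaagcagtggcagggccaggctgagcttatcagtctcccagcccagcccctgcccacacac
Apoa4 (chr9:46240594-46240893): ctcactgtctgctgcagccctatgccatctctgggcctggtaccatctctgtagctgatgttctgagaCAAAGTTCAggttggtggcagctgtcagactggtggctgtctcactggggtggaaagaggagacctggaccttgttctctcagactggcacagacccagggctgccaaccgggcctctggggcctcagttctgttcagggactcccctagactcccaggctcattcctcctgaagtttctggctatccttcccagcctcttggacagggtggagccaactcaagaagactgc
Apoa5, the first of 2 windows (chr9:46268358-46268657): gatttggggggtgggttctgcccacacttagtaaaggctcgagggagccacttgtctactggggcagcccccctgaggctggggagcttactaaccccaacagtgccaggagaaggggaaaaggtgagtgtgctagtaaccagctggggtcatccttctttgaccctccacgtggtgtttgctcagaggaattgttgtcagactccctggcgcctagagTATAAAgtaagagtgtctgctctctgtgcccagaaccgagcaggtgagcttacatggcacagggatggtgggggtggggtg
Motifs searched on both strands were the TATA box as TATAAA, the CCAAT box as CCAAT, the cyclic AMP response site as TGACG, the nuclear receptor site as AGGTCA, the HNF4 core as CAAAGTNCA and the C/EBP site as TTGCNNAA. The Apoa4 window held CAAAGTNCA at bases 69 to 77, a match found in 1.41% of 32851 such windows, and the Apoa5 window held TATAAA at bases 220 to 225, found in 13.6%. The Apoa1 window held none of the 6. Windows were at hand for 8 members, and the other two, Apoc1 and Apoc3, were not used there.

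The first question was how the level of each apolipoprotein in a whole section differed between fibrotic and healthy liver. Apoa4, which rides on triglyceride-rich particles and high-density lipoprotein and is made in the intestine and, in mice, also in the liver, was the member that rose. It had 377 CPM in the Hk2-deleted section, 541 and 660 CPM in the fibrotic sections, and 71.5 CPM in the healthy section. The 3 CCl4 sections thus lay well above the healthy section, and spots with at least 1 Apoa4 UMI made up 98.0, 99.1 and 99.6% of these, against 63.7% in the healthy section. Its log2 fold change, fibrotic over healthy, was 2.75 ± 0.38 (standard error, SE; edgeR's quasi-likelihood test, adjusted p = 5.46e-05). When the CCl4 group was made of the Hk2-deleted section and fibrotic replicate 2, leaving out replicate 1, the value was 2.57 (edgeR, adjusted p = 0.0167). Of the 10 members, all of which passed the filter on low counts, 1 was called, against 13.7% of the 14125 genes tested (9.64% higher and 4.01% lower). The hepatocyte markers summed to 177263 CPM in the Hk2-deleted section, 206612 and 193438 CPM in the fibrotic sections and 216561 CPM in the healthy section. Much of that sum was Alb, at 68850, 122530, 100699 and 135176 CPM in the same order. Single markers differed in direction. Ttr was lower in every CCl4 section (17539, 18832 and 19535 against 22574 CPM), and Trf was higher (13708, 14783 and 14415 against 8078 CPM). The sum is therefore no measure of hepatocyte number. Macrophage markers summed to 2576, 3187 and 2265 CPM, against 1423 CPM in the healthy section. Their part in the result was not tested. In whole sections, fewer cells of a type and less RNA per cell cannot be told apart.

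Because Apoa4 is also an intestinal gene, intestinal markers were read beside it. Cdx1, Cdx2, Sis and Alpi, which define intestinal epithelium, had 0 to 2 UMIs in each section. Fabp2, an intestinal fatty acid carrier that was also detected here, had 39.5 CPM in the Hk2-deleted section, 49.8 and 41.9 CPM in the fibrotic sections and 133 CPM in the healthy section, and fell with a log2 fold change of -1.87 (edgeR, adjusted p = 3.79e-06). The intestine list of 10 genes summed to 40.3, 51.9, 42.9 and 133 CPM in the same order of sections, nearly all of it Fabp2. Other genes of the list went the other way. Cdh17, an intestinal cadherin, had 2 UMIs in the Hk2-deleted section, 42 and 8 in the fibrotic ones and 0 in the healthy one, and was called higher (edgeR, adjusted p = 0.0213). Vil1, a protein of microvilli, had 21 UMIs in the Hk2-deleted section, 50 and 14 in fibrotic tissue and 6 in healthy tissue (log2 fold change 1.94 ± 0.86, edgeR, adjusted p = 0.148). The part of intestinal RNA in the Apoa4 values was not tested.

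Apoa1, the main protein of high-density lipoprotein, had 9883 CPM in the Hk2-deleted section, 11972 and 13496 CPM in the fibrotic sections and 24053 CPM in the healthy section. All 3 CCl4 sections lay below the healthy section, by 2.43, 2.01 and 1.78 times. The log2 fold change of fibrotic over healthy was -1.24 ± 0.88 (edgeR, adjusted p = 0.384) and did not pass the test, which has 1 residual degree of freedom and takes the lone healthy section to vary like the fibrotic ones. The call depended on the method, since Apoa1 was called lower by DESeq2 (-1.25, adjusted p = 4.02e-05), with library totals (-0.92, edgeR, adjusted p = 0.0114) and with scaling to hepatocyte markers (-1.04, edgeR, adjusted p = 8.96e-09).

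Apoa2, another protein of high-density lipoprotein, had 20504 CPM in the Hk2-deleted section, 18333 and 20186 CPM in the fibrotic sections and 27465 CPM in the healthy section. Apoe, the ligand of remnant receptors, had 5838, 6911 and 6553 CPM in the Hk2-deleted and the 2 fibrotic sections, and 8661 CPM in the healthy section. Both lay below the healthy section in every CCl4 section without passing the test, with log2 fold changes of -0.84 ± 0.99 for Apoa2 and -0.70 ± 0.70 for Apoe. DESeq2 called both lower (adjusted p = 0.0126 for Apoa2 and 0.0327 for Apoe), and scaling to hepatocyte markers called Apoa2 lower (-0.63, edgeR, adjusted p = 0.0019). Apom, which carries sphingosine-1-phosphate on high-density lipoprotein, had 298, 328 and 337 CPM against 362 CPM in the healthy section (log2 fold change -0.45 ± 0.30).

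Apob, the structural protein of very-low-density lipoprotein, had 1622 CPM in the Hk2-deleted section, 1265 and 1490 CPM in the fibrotic sections and 886 CPM in the healthy section. Apoc2, the activator of lipoprotein lipase, had 141 CPM in the Hk2-deleted section, 219 and 156 CPM in the fibrotic sections and 91.2 CPM in the healthy section. The raw levels of both were higher in every CCl4 section, but the log2 fold changes of 0.31 ± 0.45 and 0.70 ± 0.27 did not pass the test (edgeR, adjusted p = 0.695 and 0.0887). Apoc2 was called higher with library totals, with scaling to hepatocyte markers and with equal weight per spot.

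The remaining members differed little between sections. Apoc1, which hinders the uptake of particles by receptors, had 23336, 20052 and 24562 CPM in the Hk2-deleted and the 2 fibrotic sections, and 21531 CPM in the healthy section. Apoc3, an inhibitor of lipoprotein lipase, had 3992, 4527 and 5215 CPM, against 4440 CPM in the healthy section. For both, the healthy level lay within the range of the CCl4 sections. Apoa5, which promotes lipolysis by lipoprotein lipase, had 1269, 1304 and 1423 CPM, against 1234 CPM in the healthy section, where the raw level was lowest. Their log2 fold changes were -0.27, -0.19 and -0.18, with standard errors of 1.01, 0.63 and 0.44, and these signs depended on the scaling. With library totals the values were 0.051 for Apoc1, 0.13 for Apoc3 and 0.14 for Apoa5. With the Hk2-deleted section and fibrotic replicate 2 as the CCl4 group, none of the 9 members other than Apoa4 was called (edgeR, adjusted p = 0.144 to 0.875).

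As a group, the members took 6.73% of UMIs in the Hk2-deleted section, 6.55 and 7.41% in the fibrotic ones and 8.88% in the healthy one. Their median log2 fold change was -0.23, with 3 above and 7 below 0, against 0.0042 over all genes tested. Apoa4, Apoc2 and Apob were the members above the median of all genes, in the reported fit and in all 7 alternatives with a test. That median moved to 0.34 with library totals and to 0.23 with scaling to hepatocyte markers.

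**Figure D1:**
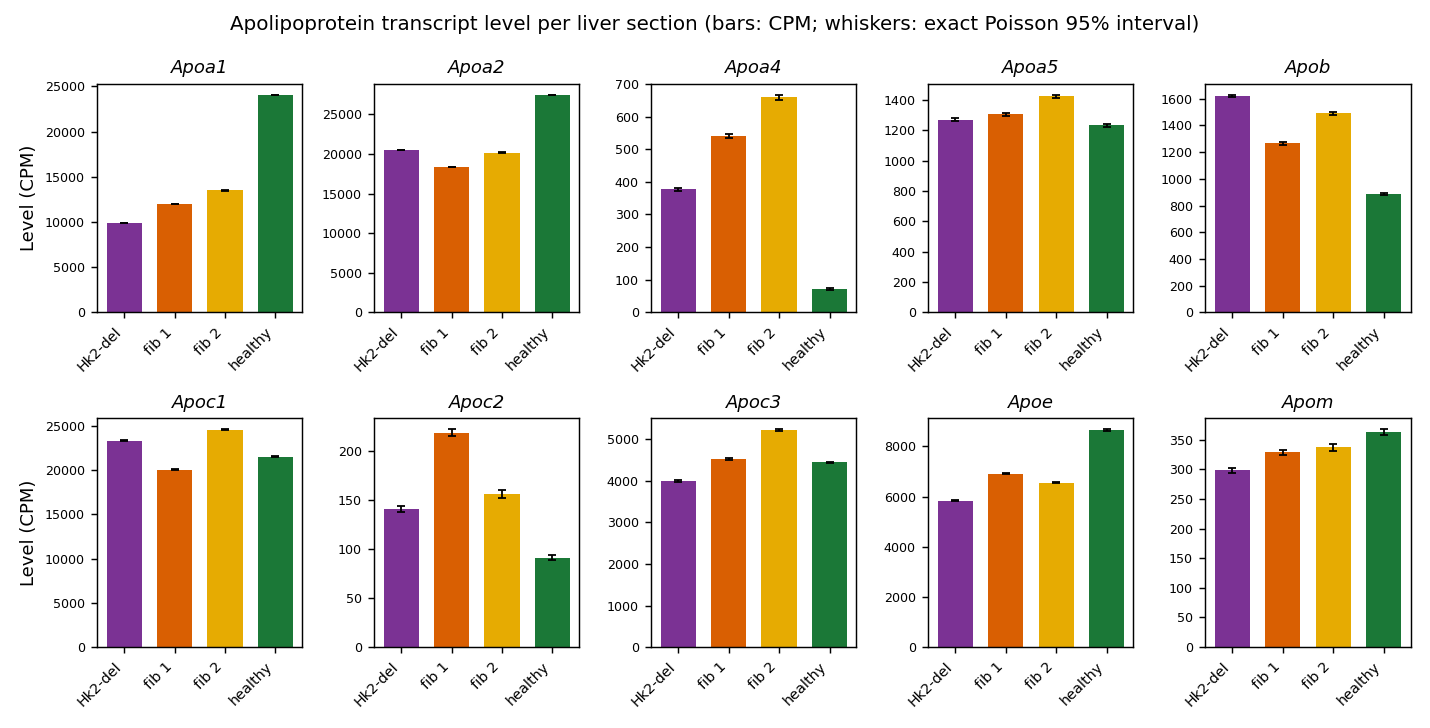
Level of each apolipoprotein transcript (vertical axis, CPM, starting at 0, a separate scale for each gene) in the Hk2-deleted fibrotic, the 2 fibrotic and the healthy section, from left to right. Bars are section totals and whiskers exact Poisson 95% intervals, which cover counting error only; Apoa4 stands lowest and Apoa1 highest in the healthy section (71.5 and 24053 CPM).

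Genes that act with the apolipoproteins were read from 5 lists, each with a smaller share called than the 13.7% of all genes. Of 16 other apolipoproteins, 14 were tested and none was called (0 of 14 by edgeR). Of 19 genes of particle assembly and secretion, 1 rose: Abcg1, a transporter that hands cholesterol to high-density lipoprotein (log2 fold change 1.00 ± 0.23, edgeR, adjusted p = 0.0049). Of 14 genes of plasma remodelling, 1 rose: Lpl, lipoprotein lipase itself (1.30 ± 0.27, edgeR, adjusted p = 0.0024). None of 14 lipoprotein receptor genes was called. Of 21 regulators, 1 fell: Nr0b2, a nuclear receptor without a DNA-binding domain that represses other nuclear receptors (-1.91 ± 0.20, edgeR, adjusted p = 2.38e-06).

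Deletion of Hk2 was compared with the fibrotic sections at the same CCl4 treatment, a comparison that shares the fibrotic sections with the one above. None of the 10 members was called, against 0.227% of the genes tested (0.142% higher and 0.085% lower, edgeR). DESeq2 also called none. Apoa4, at 377 CPM in the Hk2-deleted section, lay below both fibrotic sections at 541 and 660 CPM, with a log2 fold change of -0.74 ± 0.34 (edgeR, unadjusted p = 0.0437, adjusted p = 1.00). It was -0.96 without fibrotic replicate 1 and -0.47 without fibrotic replicate 2, values that have no test. For Apoa1, at -0.43 ± 0.92 with all sections, they were -0.60 and -0.23, and over the 10 members the values without fibrotic replicate 1 ran from -0.96 to -0.03. Apoa1, Apoa5, Apoc2, Apoc3, Apoe and Apom likewise lay below both fibrotic sections in raw level. Apob and Apoa2 lay above both. Apob had 1622 CPM in the Hk2-deleted section against 1265 and 1490 CPM, and Apoa2 had 20504 CPM against 18333 and 20186 CPM. Scaling to hepatocyte markers called Apoa1 (-0.66) and Apoa4 (-0.96) lower, with the median of all genes at -0.26. The markers used for that scaling differed between these sections themselves, without a call. Itih4 (1.03), Fgg (0.98), Fga (0.96) and Hpx (0.95) were higher in the Hk2-deleted section, while Serpinc1 (-0.38) and Ahsg (-0.33) were lower. Values scaled in this way are therefore not levels per hepatocyte. Among the lipoprotein lists, Angptl8, a regulator of lipoprotein lipase, was the gene that rose (1.90 ± 0.33, edgeR, adjusted p = 0.012).

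Position along the lobule came next. A zone score per spot was taken as the mean z-value of 8 pericentral landmark genes less that of 12 periportal ones, computed within the section and with no apolipoprotein among them. Spots were ranked by it and cut into 3 equal parts, pericentral, midlobular and periportal. Apoa5, Apoc3, Apoc2 and Apoa4 ran in the same order in all 4 sections, highest in the periportal, intermediate in the midlobular and lowest in the pericentral part. In the test with section as a block, 5 of the 10 members were lower in the pericentral part, against 5.8% of the 13080 genes tested (7.05% were higher and 12.9% changed in either direction).

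Apoa5 had 986 CPM in the pericentral and 1484 CPM in the periportal part of the Hk2-deleted section. In fibrotic tissue the pairs were 1077 against 1606 CPM and 1192 against 1620 CPM, and the healthy section had 1130 against 1309 CPM. Pericentral spots were lower in every section, and the gap was smallest in the healthy one. Its log2 ratio, pericentral over periportal, was -0.67 ± 0.11 (edgeR, adjusted p = 0.0088).

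Apoc3 followed a like course, with 3460 CPM in the pericentral and 4423 CPM in the periportal part of the Hk2-deleted section. In the fibrotic sections it had 3818 against 5435 CPM and 4424 against 5954 CPM, and in the healthy section 4169 against 4634 CPM. Again every section was lower at the pericentral end, with a log2 ratio of -0.58 ± 0.12 (edgeR, adjusted p = 0.0224).

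The other called members were Apoc2 (log2 ratio -0.57 ± 0.07), Apoa4 (-0.57 ± 0.09) and Apom (-0.30 ± 0.06), with adjusted p of 0.0039, 0.0088 and 0.0206 by edgeR. For Apoa4 the raw level was 325 in the pericentral against 419 CPM in the periportal part of the Hk2-deleted section. It was 489 against 602 CPM and 645 against 670 CPM in the fibrotic sections, and 52.8 against 87.3 CPM in the healthy section. The periportal bias of Apoa4 was thus widest in the healthy section and narrowest in fibrotic replicate 2. For Apom the raw log2 ratios were smaller than in the fit. They were -0.071, -0.057 and -0.066 in the Hk2-deleted and fibrotic sections and -0.17 in the healthy section. In each CCl4 section the midlobular part had the highest Apom level. Apom was not called with library totals or with a second set of zone landmarks. Apoa1, Apoa2, Apob, Apoc1 and Apoe were not called across the 4 sections (-0.18, -0.23, -0.20, -0.27 and -0.04).

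Marker sums differed between the same zones. Hepatocyte markers had 161239 in pericentral against 187309 CPM in periportal spots of the Hk2-deleted section, 186520 against 227737 CPM and 174939 against 205426 CPM in fibrotic tissue, and 179767 against 239803 CPM in healthy tissue. Stellate cell and fibroblast markers had 2802 against 846 CPM, 3207 against 1286 CPM and 2143 against 659 CPM in the CCl4 sections, and 353 against 299 CPM in the healthy section. Macrophage markers had 3121 against 2122 CPM, 3909 against 2400 CPM and 3007 against 1677 CPM in the CCl4 sections, and 1169 against 1471 CPM in the healthy section. Summed hepatocyte markers were thus lower pericentrally in all 4 sections, and macrophage markers were higher there in the CCl4 sections and lower in the healthy one. Single hepatocyte markers differed between zones by unlike amounts. Hpx (-0.94), Fgb (-0.74) and Fga (-0.73) were called lower pericentrally, and Alb (-0.51) and Trf (-0.22) were not called. In the healthy section Alb had 104062 against 155342 CPM. Their sum is therefore no measure of hepatocyte number. The part of these cell types in the zone values of the apolipoproteins was not tested.

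The zone calls depended on which sections were used. Without the Hk2-deleted section 0 members were called, and over all genes 125 were called higher and 115 lower. Without fibrotic replicate 1 the count was 1 member, with 176 and 158 over all genes. Without fibrotic replicate 2 it was 2 members, with 161 and 132 over all genes. Without the healthy section it was 8 members, with 2656 and 2795 over all genes. The count of members thus moved with the calls over all genes. The log2 ratios of Apoa5 stayed between -0.79 and -0.62 in these fits. Scaling mattered too: with sums scaled to hepatocyte markers the median of all genes moved to 0.45, Apoe (0.41), Apoa1 (0.27), Apob (0.25) and Apom (0.15) were called higher pericentrally and Apoa5 (-0.22) lower, and all 10 members stayed below that median.

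**Figure D2:**
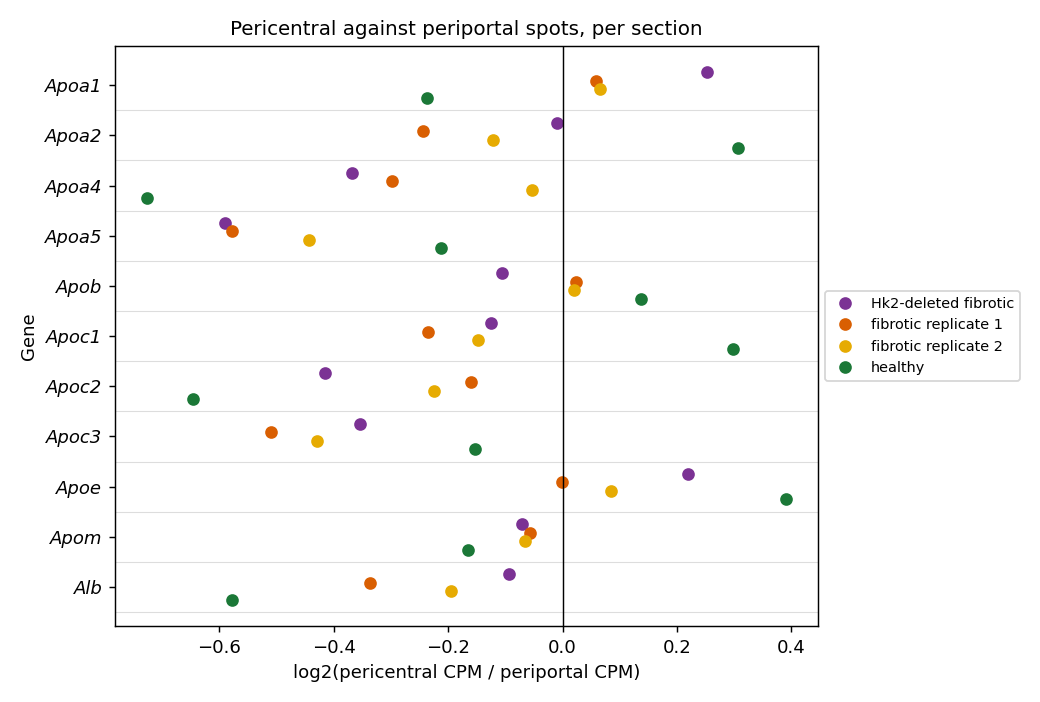
Log2 ratio of pericentral over periportal level (horizontal axis, raw CPM of the pericentral and periportal spots) for each apolipoprotein and for Alb, 1 point per section, with the Hk2-deleted section uppermost in each row. Apoa5, Apoc3, Apoc2, Apoa4 and Apom lie left of 0 in all 4 sections, while Apoa2 and Apoc1 lie left of 0 in the 3 CCl4 sections and right of it in the healthy section.

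The zone pattern itself was then compared between the 3 CCl4 sections and the healthy section. Of the 10 members, 6 had a lower pericentral over periportal ratio with CCl4, against 9.99% of the 13346 genes tested (7.69% were higher and 17.7% changed in either direction). Apoc1 and Apoa2 turned round. Apoc1 had 21995 in the pericentral against 23988 CPM in the periportal part of the Hk2-deleted section, 18406 against 21665 CPM and 22982 against 25447 CPM in the fibrotic sections, and 23950 against 19482 CPM in the healthy section. The pericentral part was thus the lower one in each CCl4 section and the higher one in the healthy section, and the difference of log2 ratios was -0.60 ± 0.10 (edgeR, adjusted p = 0.0012).

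Apoa2 had 20271 in the pericentral against 20396 CPM in the periportal part of the Hk2-deleted section, 16889 against 19997 CPM and 19119 against 20798 CPM in the fibrotic sections, and 30771 against 24865 CPM in the healthy section. It too was pericentral in the healthy section and not in the others, nearly level in the Hk2-deleted one (difference of log2 ratios -0.57 ± 0.11, edgeR, adjusted p = 0.0034). Apoa5 (-0.46 ± 0.10), Apoc3 (-0.41 ± 0.10), Apoe (-0.42 ± 0.11) and Apob (-0.29 ± 0.09) were the other 4 called. Apoa5 and Apoc3 were periportal in the healthy section already and more so with CCl4, whereas the pericentral bias of Apoe was smaller with CCl4: its raw log2 ratio was 0.22, -0.00011 and 0.085 in the Hk2-deleted and fibrotic sections and 0.39 in the healthy section.

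The other 4 members had no call. Apoa1 had 10760 in the pericentral against 9026 CPM in the periportal part of the Hk2-deleted section, 12143 against 11662 CPM and 13589 against 12990 CPM in the fibrotic sections, and 21659 against 25515 CPM in the healthy section. So in raw CPM Apoa1 leaned pericentral in each CCl4 section and periportal in the healthy section, opposite to Apoc1 and Apoa2. The lean was slight in the fibrotic sections, with raw log2 ratios of 0.058 and 0.065. In fibrotic replicate 2 the midlobular part was highest, at 13936 CPM. Ratios this small depend on the scaling: the median of all genes in the zone fit was 0.22 with library totals and 0.00091 with TMM. The difference of log2 ratios for Apoa1 was 0.23 ± 0.11 (edgeR, adjusted p = 0.183). Apoa4 (0.35 ± 0.12), Apoc2 (0.24 ± 0.11) and Apom (-0.03 ± 0.09) were not called either.

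Markers of other cells had a zone difference that changed in the same fit. Among them were Pdgfrb (1.88) and Col3a1 (1.33) of stellate cells and fibroblasts and C1qa (1.09) and Csf1r (1.03) of macrophages, all higher. The hepatocyte genes Fgg (-0.45) and Itih4 (-0.36) were lower. Markers of 1 list did not all move alike: the macrophage gene Marco (-0.55) was called lower, and the hepatocyte gene Alb (0.23) was not called. Their part in the apolipoprotein values was not tested. Without the collagen-rich spots the members' median was -0.22, against -0.35 with them. Apoe (-0.37), Apoc3 (-0.30) and Apob (-0.15) then lost their calls, Apoc1, Apoa2 and Apoa5 kept theirs, and Apoa4 (0.44) and Apoc2 (0.34) were called higher.

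The term compares 3 CCl4 sections with 1 healthy section, taken to vary like them. Apoc1 was called in all 11 alternatives (-0.64 to -0.36), and Apoa2 and Apoa5 in 10 of 11, missing with scaling to hepatocyte markers. Apoe and Apoc3 lost their calls without fibrotic replicate 1 (-0.37 for each), Apoe also without fibrotic replicate 2 (-0.40), and Apob, called in 1 of 11, lost its call without any CCl4 section (-0.31 to -0.27). Apoa4 was called higher in 7 of 11 alternatives, among them without the Hk2-deleted section (0.40) and without fibrotic replicate 1 (0.38), and Apoc2 in 4, among them without the Hk2-deleted section (0.31). Depth moved with the zone in the healthy section, where the median spot had 11637 UMIs in the pericentral and 20446.5 UMIs in the periportal part; in the CCl4 sections the medians were 13781 against 16079, 17357 against 12493.5 and 13479 against 13345 UMIs. When zone parts were taken separately among the deeper and the shallower spots of each section, Apoc1, Apoa2, Apoa5, Apoc3 and Apoe were called. There the deeper and the shallower spots of a section entered as separate blocks, although they come from 1 mouse and are not replicates.

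**Figure D3:**
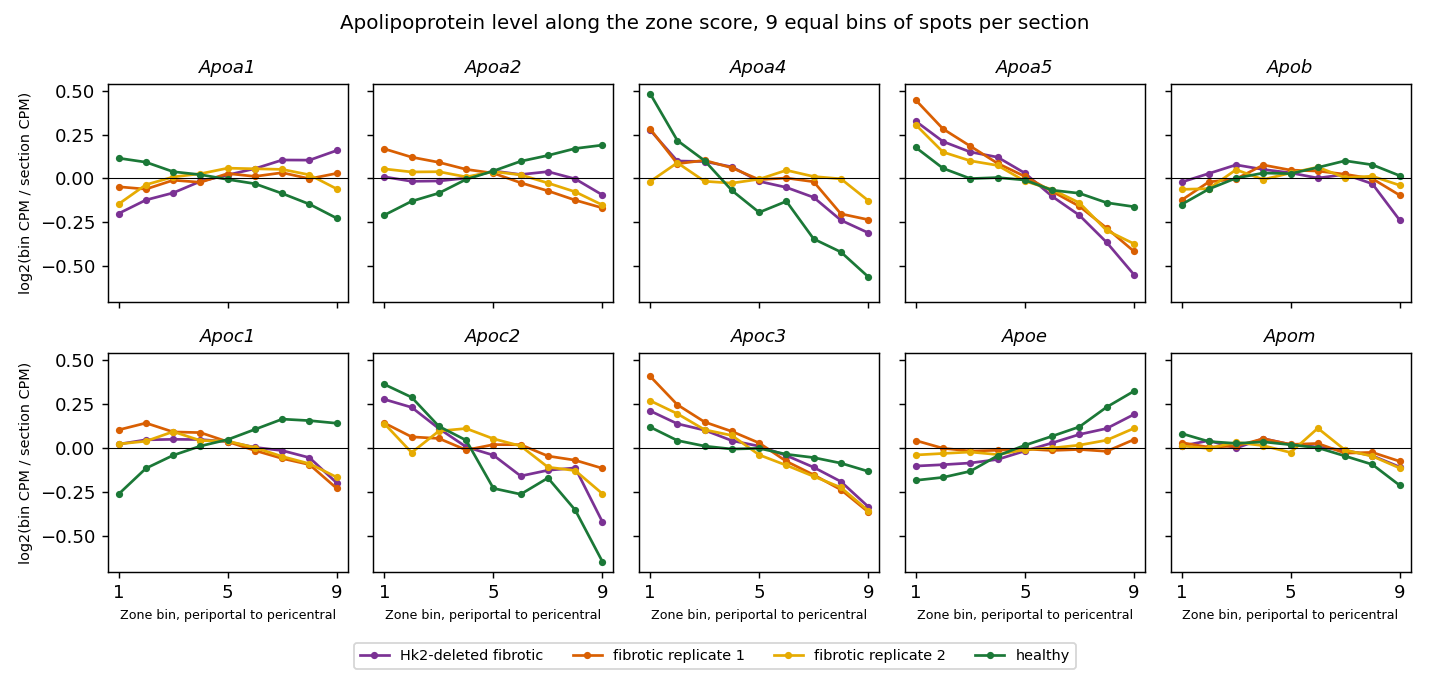
Log2 of the level in each of 9 bins of spots over the section's own level (vertical axis, the same for all panels), from the periportal bin on the left to the pericentral bin on the right, 1 line per section. In the healthy section the last bin lies above the first for Apoa2, Apoc1 and Apoe and below it for Apoa1, and for Apoa5 and Apoc3 it lies below the first in every section.

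Other genes of lipoprotein metabolism were read against the 7.05% of all genes called higher and the 5.8% called lower pericentrally. Of 13 other apolipoproteins tested, 6 were lower pericentrally, among them Apol10b (-1.48 ± 0.26), Apol9b (-0.67 ± 0.11), Saa4 (-0.67 ± 0.12), an apolipoprotein of high-density lipoprotein, and Apon (-0.66 ± 0.09). Apol9a and Apol9b are near-identical copies, so their counts may be shared. In particle assembly and secretion 1 gene of 19 was higher and 2 were lower: Ces1g (0.36), Smlr1 (-0.42) and Tm6sf2 (-0.38). In plasma remodelling 3 of 14 were higher, Lpl (0.73), Pltp (0.66), a phospholipid transfer protein, and Pon1 (0.50), and 1 was lower, Gpihbp1 (-0.36), the anchor of lipoprotein lipase on capillaries. Of 13 receptor genes, Vldlr (1.30) and Mylip (0.36) were higher and Sdc1 (-0.68), a proteoglycan that takes up remnants, was lower. Of 21 regulators, 3 were lower: Ppargc1a (-0.50), Hnf4a (-0.42), a main activator of apolipoprotein genes in liver, and Creb3l3 (-0.31).

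The change of the zone difference with CCl4 was read for the same lists, against 7.69% of all genes called higher and 9.99% called lower. Of 13 other apolipoproteins 5 had a lower ratio with CCl4, led by Saa4 (-0.64), Apol9b (-0.63), Apoh (-0.47) and Apol7a (-0.40). In particle assembly and secretion 2 were higher and 5 lower, the largest being Abcg1 (0.67), Dgat2 (-0.45), which makes triglyceride, Mia3 (-0.39) and Mia2 (-0.39). In plasma remodelling 5 were lower, among them Lipc (-0.64), the hepatic lipase, Lcat (-0.48) and Pon1 (-0.39). Among receptors 1 was higher and 3 lower, Msr1 (0.71), Cd36 (-0.95), Vldlr (-0.87) and Scarb1 (-0.36), the receptor of high-density lipoprotein. Among regulators 2 were higher and 6 lower, led by Apobec1 (0.79), which edits Apob mRNA, A1cf (-0.49), its partner, Nr5a2 (-0.47) and Ppara (-0.43). All values are differences of log2 ratios called by edgeR.

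The scar was read through the collagens Col1a1, Col1a2 and Col3a1, taking in each section the 10% of spots richest in their UMIs: 387 spots in the Hk2-deleted section, 414 and 258 in the fibrotic ones and 307 in the healthy one. These collagens took 0.450, 0.415 and 0.228% of UMIs in the collagen-rich spots of the CCl4 sections and 0.0255% in those of the healthy section. In the 3 CCl4 sections, all 10 members were lower in collagen-rich than in other spots, in a fit with section as a block, where 21.9% of 13493 genes were lower (21.7% were higher and 43.6% changed in either direction). The healthy section was described without a test.

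Apoa5 fell most. It had 898 CPM in collagen-rich and 1308 CPM in other spots of the Hk2-deleted section, 976 against 1346 CPM and 1076 against 1456 CPM in the fibrotic sections, and 1154 against 1241 CPM in the healthy section. The level in collagen-rich spots was lower in every section, by more in the CCl4 sections, and the log2 fold change over these was -0.80 ± 0.06 (edgeR, adjusted p = 2.46e-07). Apoc3 came next, at -0.72 ± 0.06, with 3055 against 4091 CPM in the Hk2-deleted section, 3498 against 4657 CPM and 4119 against 5320 CPM in the fibrotic sections, and 4343 against 4450 CPM in the healthy section.

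Apob (-0.63), Apoc1 (-0.62), Apoa2 (-0.59), Apom (-0.54), Apoa4 (-0.53) and Apoc2 (-0.50) fell by amounts near those of the hepatocyte secretory genes Alb (-0.63 ± 0.07) and Ttr (-0.52 ± 0.06). Apoa1 (-0.35 ± 0.06) and Apoe (-0.29 ± 0.06) fell least. In raw CPM, without scaling, Apoe was nearly level in the fibrotic sections. It had 6200 in collagen-rich against 5800 CPM in other spots of the Hk2-deleted section, 6901 against 6912 CPM and 6522 against 6556 CPM in the fibrotic sections, and 8477 against 8678 CPM in the healthy section. Apoa1 had 10247 against 9844 CPM in the Hk2-deleted section, 11801 against 11993 CPM and 12561 against 13585 CPM in the fibrotic sections, and 23386 against 24117 CPM in the healthy section. In fibrotic replicate 2, Apoa4 and Apoc2 lay nearer to level than Apoa1, with log2 ratios of -0.082 and -0.106, against -0.113 for Apoa1.

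The order of the members within a section does not depend on scaling. In each of the 3 CCl4 sections Apoe had the highest and Apoa5 the lowest ratio of the 10, with log2 ratios 0.64, 0.46 and 0.43 apart in the Hk2-deleted and fibrotic sections and 0.071 apart in the healthy section. The median log2 fold change of the members was -0.56, against 0.014 over all genes tested. The direction of a change depended on the scaling. With library totals 8 members were called lower, Apoe was at 0.029 and the median of all genes at 0.33. With scaling to hepatocyte markers other than Alb, that median was 0.65, Apoe (0.35) and Apoa1 (0.29) were called higher and Apoa5 (-0.16) lower, and Apoc1 (0.017), Apoa2 (0.048) and Apob (0.0065) lay near 0. All 10 members stayed below the median of all genes under each of the 12 alternatives.

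Markers of other cell types differed between the same spots. The summed hepatocyte markers had log2 ratios of -0.36, -0.31 and -0.28 in the Hk2-deleted and fibrotic sections and -0.04 in the healthy section. Stellate cell and fibroblast markers other than the 3 collagens, 10 genes, had 1.49, 1.09 and 1.35, against 0.53 in the healthy section. Macrophage markers, cells that also make Apoe, had 0.35, 0.52 and 0.67, against -0.03, with all 18 genes detected. Neutrophil markers had 1.83, 1.06 and 1.49, against 0.12. Cholangiocyte markers had 1.25, 0.98 and 0.55, against 1.11 in the healthy section, and neuron and glia markers had 1.08, 0.84 and 0.65, against 0.83, with Snap25 at 0 in every section. The part of these cell types in the apolipoprotein values was not tested.

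Mesothelial markers, which mark the liver surface, had log2 ratios of 3.17, 2.12 and 1.78, against 1.78 in the healthy section. Spots on or next to the surface were 66.1, 49.0 and 2.33% of the collagen-rich spots, against 12.7% in the healthy section. Without surface spots all 10 members were still called lower, and so they were without fibrotic replicate 1 (-0.82 for Apoa5 to -0.28 for Apoe). Collagen-rich spots were also mostly pericentral, at 70.3, 73.7 and 82.6%, against 41.7% in the healthy section. Compared within the 3 zone parts, all 10 members were again called lower. That fit took the zone parts of a section as separate blocks, although they come from 1 mouse and are not replicates.

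**Figure D4:**
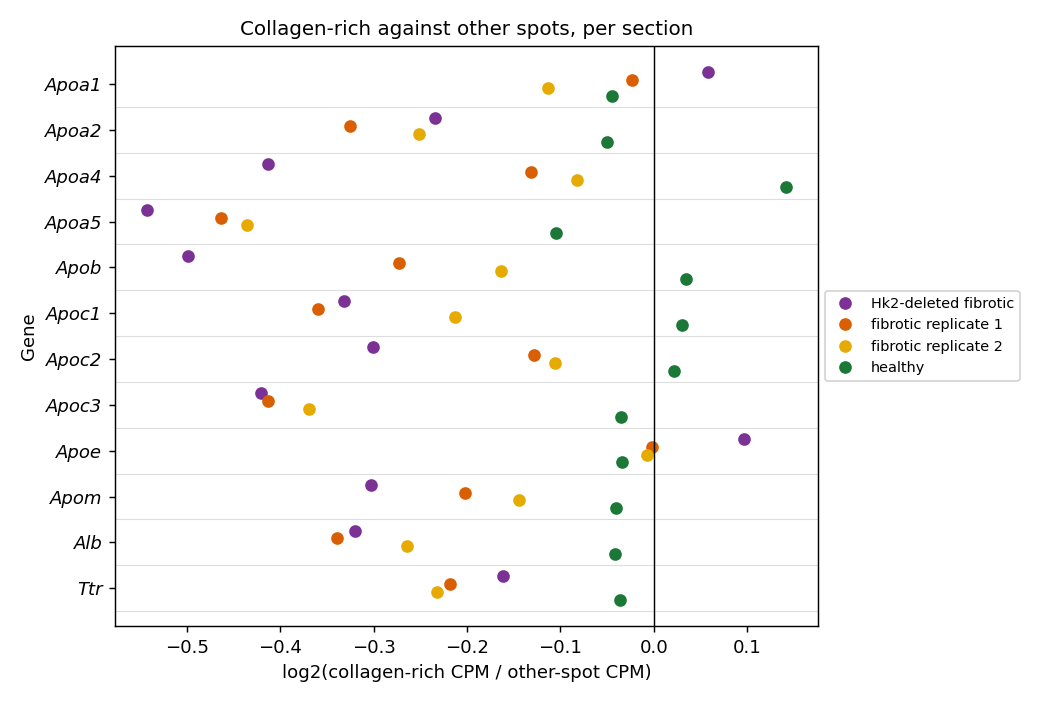
Log2 ratio of the raw level in collagen-rich over other spots (horizontal axis) for each apolipoprotein and for Alb and Ttr, 1 point per section, with the Hk2-deleted section uppermost in each row. Points of the 3 CCl4 sections lie left of the healthy section for Apoa5, Apoc3, Apob, Apoc1, Apoa2, Apoa4, Apoc2 and Apom, while those of Apoe lie between -0.0075 and 0.096 and those of Apoa1 between -0.11 and 0.058.

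Among all genes 21.9% were called lower and 21.7% higher in collagen-rich spots. In the list of other apolipoproteins, 12 of 13 genes tested fell in collagen-rich spots, led by Apoo (-1.17), Apol9b (-0.89), Saa4 (-0.81) and Apol9a (-0.81). A place on that list does not show that a gene's product is carried on lipoproteins. In particle assembly and secretion 13 of 19 fell and 3 rose, with Smlr1 (-0.81), Tm6sf2 (-0.80) and Dgat2 (-0.58) lower and Sort1 (0.62), a sorting receptor for apolipoprotein B, higher. In plasma remodelling 10 of 14 fell and 2 rose, with Lcat (-0.68), Lipc (-0.62) and Gpihbp1 (-0.57) among those that fell. Receptors were split, with 6 of 14 lower and 3 higher: Olr1 (2.17), a scavenger receptor, Lrp8 (1.15) and Vldlr (0.58) rose, and Sdc1 (-0.68) fell. Of 21 regulators 14 fell and 2 rose, led by Hnf4a (-0.64), A1cf (-0.59), Foxa2 (-0.54) and Mlxipl (-0.53).

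How strongly a transcript is patterned over the section was taken from the authors' deposited table of Moran's I, which is near 0 for a random pattern and near 1 where neighbouring spots are alike. In the authors' deposited table, the median I over all genes was 0.0022 to 0.0045 in the 4 sections, and at least 86.5% of genes had a lower I than any member. Apoc1 had an I of 0.262 in the Hk2-deleted section, 0.278 and 0.439 in the fibrotic ones and 0.626 in the healthy one, where it ranked 4 of 15352 genes in the authors' deposited table. Apoa1 had 0.226, 0.221, 0.299 and 0.576 there in the same order, and ranked 8 in the healthy section. Both were thus patterned most strongly in the healthy section. Apoc3 went the other way in the authors' deposited table, with 0.362, 0.245 and 0.270 in the Hk2-deleted and fibrotic sections and 0.146 in the healthy section. Apob likewise stood highest in the Hk2-deleted section, at 0.348 in the authors' deposited table, against 0.254 and 0.161 in the fibrotic ones and 0.170 in the healthy one. The low-count members Apoa4, Apoc2 and Apom had 0.0173 to 0.0981 over all sections in the authors' deposited table. Moran's I has no error here and is lower for transcripts with few UMIs, so its differences were not tested.

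**Figure D5:**
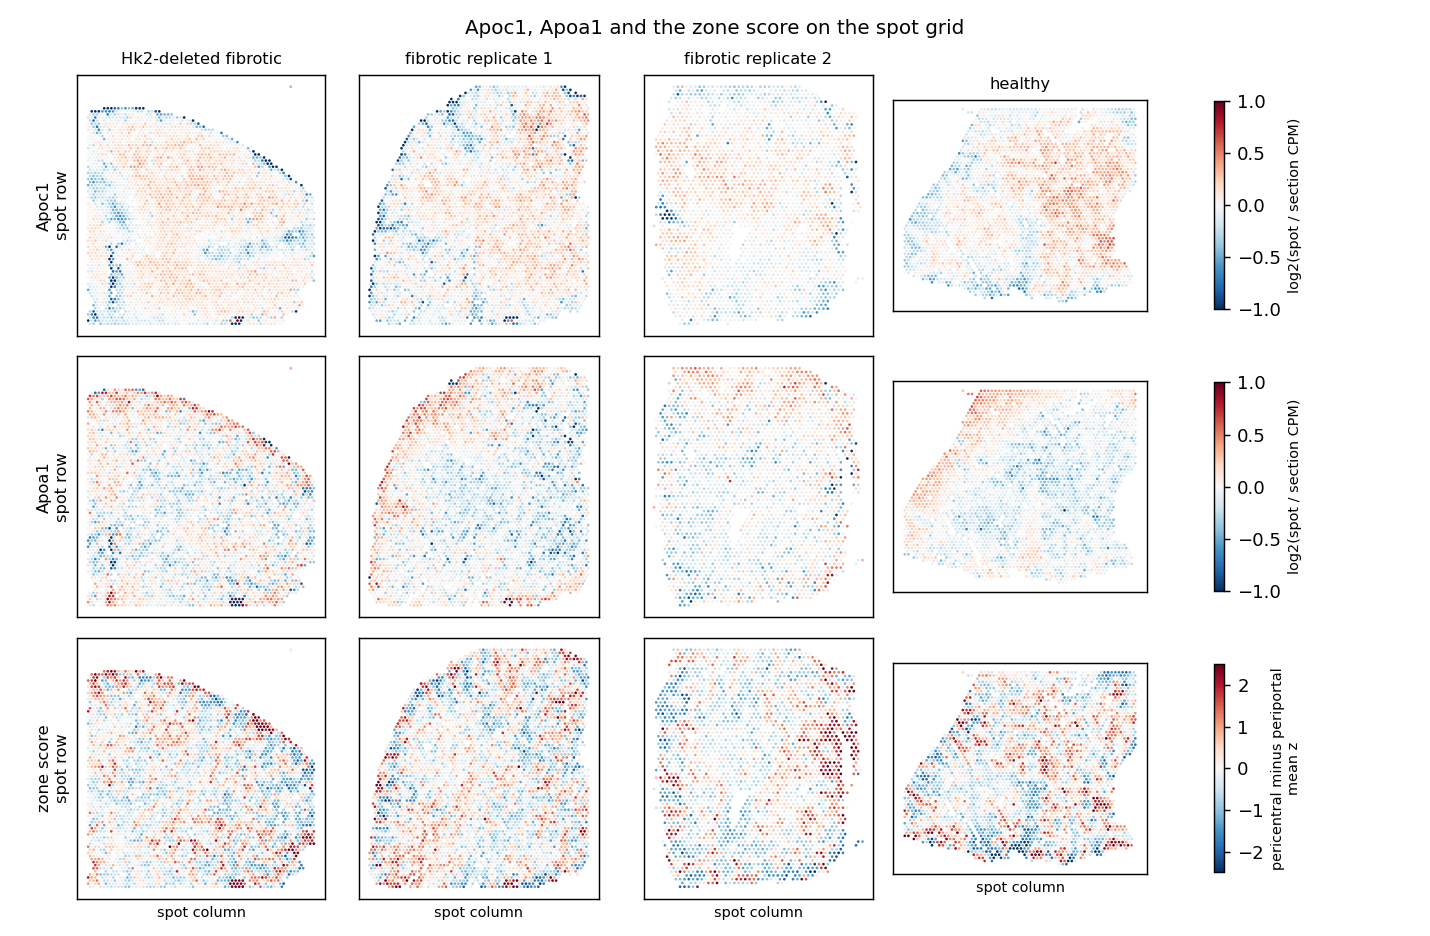
Spot maps of Apoc1 and Apoa1 (log2 of the spot's CPM over the section's CPM, red higher and blue lower) and of the zone score, with the Hk2-deleted, the 2 fibrotic and the healthy section from left to right. In the healthy section Apoc1 is high in the middle and right of the tissue and Apoa1 along its upper left edge, with a spot correlation of -0.58.

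The members' relations across spots differed between sections. Pearson's r of log2(CPM + 1) between Apoa1 and Apoc1 was 0.42 over 3865 spots of the Hk2-deleted section, 0.29 over 4134 and 0.0072 over 2577 spots of the fibrotic sections, and -0.58 over 3064 spots of the healthy section. All 45 pairs of members had a positive r in the Hk2-deleted section and in fibrotic replicate 1, 40 of 45 in fibrotic replicate 2 and 20 of 45 in the healthy section. The neighbours Apoa5 and Apoc3 had 0.78, 0.71, 0.38 and 0.23 in the same order of sections, and Apoa2 and Apoc1 had 0.56, 0.48, 0.44 and 0.54. Spots of 1 section share their library, and a spot's depth went with these levels: in the healthy section the r with log2 depth was -0.62 for Apoc1 and 0.48 for Apoa1. The correlations are therefore descriptions.

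For each member, the non-member genes most like it were named by the mean r over the 4 sections, among 8077 genes with a pooled level of at least 10 CPM. Apoc3 was most like Serpina3k (0.62), Gnmt (0.62) and Uox (0.60), and Apoa5 like Uox (0.58), Cps1 (0.57) and Gnmt (0.55). Cps1, the first enzyme of the urea cycle, is a periportal landmark of the zone score. Apoc1 was most like Gpx1 (0.57), Serpina1b (0.57) and Fth1 (0.56), Apoe like Rbp4 (0.56), Cyb5a (0.53) and Cdo1 (0.50), and Apoa2 like Hpd (0.55), Cyp3a11 (0.49) and Gpx1 (0.47). Apob was most like Tpt1 (0.49), Serpina1b (0.49) and Fth1 (0.48), and the genes named for Apoa1 were Scd1 (0.40) and Cps1 (0.40). Those named for Apoa4 were Cps1 (0.31) and Gnmt (0.27). Apoc2, with Hpx (0.17), Itih3 and Mup3 (both 0.16), and Apom, with Itih3, Fga and Uox (0.20, 0.20 and 0.19), had no close partner, and their low counts limit any r.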

How the data were processed

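Transcripts were counted in 4 mouse liver sections. The deposited UMI counts per gene and spot came from Space Ranger 2.0.0 according to their file headers, and the submitters' processing notes name the build mm10. The probe set is not given in the sources used here. Another deposited table of the authors holds a score per gene, Moran's I, and an adjusted p-value that was left out here. UMI totals in that table equalled those of the matrices for every gene listed.

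Counts were summed per section, zone part or spot class, since spots are not replicates, and tested with edgeR 4.0.16 in R 4.3.3 (TMM scaling, filterByExpr, quasi-likelihood test, Benjamini-Hochberg adjustment over all genes tested; called at an adjusted p under 0.05). The whole-section fit of 3 groups has 1 residual degree of freedom, the zone fit 3, and the interaction and collagen fits 2 each. Labels name 1 mouse per section, so p-values of lone sections rest on the spread between the others. Raw CPM have exact Poisson 95% intervals in the plot of section levels, which cover counting error only.

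The members and gene lists were chosen with earlier results of these data known. Named genes were all members, up to 4 called genes with the largest change per lipoprotein list and comparison, Alb and Ttr, and the 3 nearest genes per member; some genes that this rule names are not reported here; Eif2s3y, Fabp2 and single intestinal markers were named where a result turned on them. The spot filter was the deposited tissue call. DESeq2 1.42.0 and limma 3.58.1 were used for alternatives. On simulated data with 200 changed genes, edgeR recovered 46.5% of genes changed by a log2 of 1 and 91.0% of those changed by a log2 of 2 in the fibrotic against healthy fit, and 92.9% and 100.0% between zones. The shares were lowest in the Hk2-deleted against fibrotic fit, at 36.0% and 85.9%. They were 69.1% and 92.0% for the interaction and 83.8% and 94.9% for collagen-rich spots. Gene positions and promoters came from RefSeq tables of GRCm38.p6, with all 10 members matched by symbol. Images were not analysed here.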

Additional observations from a re-analysis of the deposited data

Results flagged for a closer look

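For 6 members the difference between pericentral and periportal spots itself differed between the 3 CCl4 sections and the healthy section, by the test of that difference (edgeR, adjusted p under 0.05). The differences of log2 ratios, CCl4 minus healthy, were -0.60 for Apoc1, -0.57 for Apoa2, -0.46 for Apoa5, -0.42 for Apoe, -0.41 for Apoc3 and -0.29 for Apob. The pericentral over periportal log2 ratio of Apoc1 was -0.13, -0.24 and -0.15 in the Hk2-deleted and fibrotic sections and 0.30 in the healthy section. All 6 comparisons share the 1 healthy section, in which spots of the pericentral part had fewer UMIs than those of the periportal part (median 11637 against 20446.5 UMIs).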

How the results depend on the processing

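The count of members called was 1 for fibrotic against healthy sections; it was 4 with DESeq2, 4 with library totals, 4 with scaling to hepatocyte markers and 2 with equal weight per spot, and Apoa4 was among them each time (2.48 to 3.12 over all alternatives). For Hk2-deleted against fibrotic sections the count of 0 became 2 with scaling to hepatocyte markers. Between zones the 5 calls ranged from 0 to 8 when 1 section was left out. Over all genes, 125 were called higher and 115 lower where the count was 0, and 2656 and 2795 where it was 8. With scaling to hepatocyte markers 6 values turned positive, 4 of them called (Apoe 0.41, Apoa1 0.27, Apob 0.25, Apom 0.15) and 2 not (Apoa2 0.22, Apoc1 0.18). For the change of zone ratios with CCl4 the 6 calls ranged from 4 to 8. In collagen-rich spots the 10 calls remained 10 in 10 of 12 alternatives, with library totals giving 8 and scaling to hepatocyte markers 3. There the values turned to Apoe 0.35, Apoa1 0.29, Apoc2 0.14, Apoa4 0.11, Apom 0.10, Apoa2 0.048, Apoc1 0.017 and Apob 0.0065, and with library totals Apoe turned to 0.029; a shift of the median of all genes to 0.65 and 0.33 goes with these scalings. The cause of other changes was not tested. In all, 426 of 510 values kept their side of the threshold or, where there was no test, stayed near the reported value. Some of these changed sign with no call on either side. For fibrotic against healthy sections, Apoc3 and Apoa5 each kept the reported sign in 6 of 9 alternatives. Without either fibrotic replicate the whole-section fit has no residual degree of freedom, so it gave values and no calls. Taking zone parts within deeper and shallower spots, the hepatocyte scaling of the zone fits and library totals for the interaction were chosen after seeing the data. No paired analysis was possible because the labels number the fibrotic sections alone, so groups share fewer than 2 numbers. Apoa4 (3861 UMIs) and Apoc2 (4925 UMIs) in the healthy section were the shallowest values.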
